A study of Homo sapiens with 8 samples.

Results

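Epithelial cells hold each other through classical cadherins, and 8 genes of that contact were followed here in PNT2, an immortalized line made from human prostate epithelial cells. The genes were 5 classical cadherins (*CDH1*, *CDH2*, *CDH3*, *CDH4* and *CDH11*), the catenins *CTNNA1* and *CTNNB1*, and the epithelial adhesion molecule *EPCAM*. They were chosen by name as the core of the adherens junction plus *EPCAM*, out of 33791 genes with a listed transcript, and 7 of the 8 were among the 14653 genes with enough counts to be tested. Bulk RNA-seq was performed on 4 groups with 2 libraries each, called A and B. WT was the parental line, and a pair of groups carry the labels *ERF* KD and *CIC* KO. The last group is labelled *CIC-ERF* codeletion and is called *ERF* KD + *CIC* KO here, the study's name for cells deficient in both. *ERF* encodes a repressor that occupies ETS binding sites, and in this study it was lowered with short hairpin RNA under puromycin selection. *CIC* encodes a repressor of ETS family genes, and it was targeted with Cas9 and guide RNA under blasticidin selection. The line that lost both repressors joined an *ERF* hairpin to a *CIC* guide. WT cells are described only as parental, so no group of cells with a control hairpin or control guide was analysed here. The labels do not say whether A and B are separate cultures, hairpins or guides, and p-values then measure only the spread between these libraries.

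A classical cadherin reaches out of the cell, binds a cadherin of the neighbouring cell, and holds β-catenin (*CTNNB1*) on its cytoplasmic tail. α-catenin (*CTNNA1*) links β-catenin to actin filaments. E-cadherin (*CDH1*) is the main cadherin of simple and glandular epithelia, P-cadherin (*CDH3*) is typical of basal cells such as those of the prostate, and N-cadherin (*CDH2*) is typical of neurons and mesenchymal cells. R-cadherin (*CDH4*) is closest to N-cadherin, and cadherin-11 (*CDH11*) is known from fibroblasts and bone-forming cells. EPCAM is unrelated to cadherins in sequence and lies in the lateral membrane of epithelial cells.

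The labels of the single-loss libraries need care. *ERF* stood at 55.9 CPM (counts scaled to a common library size) in both WT libraries, at 81.2 and 77.8 in the *ERF* KD-labelled ones, at 18.8 and 11.7 in the *CIC* KO-labelled ones, and at 11.6 and 10.4 in *ERF* KD + *CIC* KO. Thus the *CIC* KO-labelled libraries had little *ERF* mRNA and the *ERF* KD-labelled ones did not, and the deposited file names of these 4 libraries carry the opposite letters to the labels. *CIC* mRNA, which a Cas9 cut need not change, was at 128 and 129 CPM in WT, 109 and 109 in the *ERF* KD-labelled libraries, 132 and 131 in the *CIC* KO-labelled ones, and 90.9 and 66.4 in *ERF* KD + *CIC* KO. The labels are kept below as names of libraries, and every direction that rests on a single-loss group holds for the libraries so labelled. Were the labels exchanged, the values of these groups would change places and the interaction term would stay as it is, since it treats the single-loss groups alike. Library totals ran from 19477473 to 25813157 estimated counts, where 3 counts correspond to between 0.127 and 0.169 CPM.

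The part of a classical cadherin that meets β-catenin is its C-terminal tail, and the end of the coding sequence shows how near the cadherin genes are to each other. The last 120 coding bases before the stop codon are given for the 4 cadherins whose leading transcript carries a full coding sequence. They were read from the GENCODE 29 transcripts and lie in exon 16 of *CDH1* (GRCh38, chr16:68833377-68833496, plus strand), exon 16 of *CDH2* (chr18:27952156-27952275, minus strand), exon 16 of *CDH3* (chr16:68698278-68698397, plus strand) and exon 15 of *CDH4* (chr20:61936821-61936940, plus strand). Capitals mark bases identical to *CDH1* in a gapped pairwise alignment.
CDH1: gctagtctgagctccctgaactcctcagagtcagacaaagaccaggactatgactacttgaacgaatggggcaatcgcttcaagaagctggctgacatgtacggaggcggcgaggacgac
CDH3: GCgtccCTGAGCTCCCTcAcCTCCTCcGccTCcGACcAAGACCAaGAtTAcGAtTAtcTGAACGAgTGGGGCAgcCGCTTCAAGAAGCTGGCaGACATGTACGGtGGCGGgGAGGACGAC
CDH2: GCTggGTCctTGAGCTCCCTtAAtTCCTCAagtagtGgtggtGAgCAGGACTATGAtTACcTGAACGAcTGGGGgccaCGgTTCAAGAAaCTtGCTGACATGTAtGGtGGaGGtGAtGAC
CDH4: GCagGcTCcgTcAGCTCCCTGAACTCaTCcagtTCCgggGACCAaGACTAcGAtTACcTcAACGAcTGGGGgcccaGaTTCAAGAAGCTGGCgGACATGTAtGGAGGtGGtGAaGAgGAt
Identity to *CDH1* over the aligned columns was 80.8% for *CDH3* and 70.7% for both *CDH2* and *CDH4*, and *CDH2* and *CDH4* shared 74.0% with each other. Over whole leading transcripts no stretch of 31 bases was common to any pair of these genes, so reads of that length tell the members apart. Against other genes, 7.09% of such stretches of *CTNNA1* occur in the pseudogene *CTNNA1P1* and 5.55% of those of *EPCAM* in *AC093840.1*, and the counts of these members carry that uncertainty. *CDH1*, *CDH2*, *CDH3* and *CTNNA1* also have exons that overlap genes on the opposite strand, and whether the counting used strand is not given in the sources used here.

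In WT cells the abundant members were *EPCAM*, both catenins, *CDH3* and *CDH1*. Levels of different genes are compared here in TPM, which corrects for transcript length. *EPCAM* was at 322 ± 6.04 TPM (SD, n = 2), *CTNNB1* at 308 ± 3.25, *CTNNA1* at 281 ± 30.9, *CDH3* at 148 ± 8.0 and *CDH1* at 127 ± 1.3. Below them came *CDH2* at 19.7 ± 2.90 TPM, *CDH4* at 1.08 ± 0.642 and *CDH11* at 0.362 ± 0.415. The catenins lay within the SD of *CTNNA1* of each other, and *CDH4* and *CDH11* overlapped, whereas the other neighbours in this order differed by more than their SDs. WT PNT2 cells thus carried E- and P-cadherin mRNA in like amounts, with N-cadherin mRNA lower than either.

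The order was different in the *ERF* KD-labelled libraries. There *CTNNA1* (286 ± 15.4 TPM) and *CTNNB1* (277 ± 38.9) were on top, followed by *CDH2* at 69.5 ± 2.54, *EPCAM* at 39.7 ± 9.93, *CDH3* at 21.1 ± 9.05, *CDH1* at 5.39 ± 0.340, *CDH4* at 3.96 ± 0.691 and *CDH11* at 0.449 ± 0.446. *CDH2* was the most abundant cadherin mRNA in these libraries and *CDH1* was far below *CDH3*. The catenins could not be told apart by their spread.

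**Figure D1:**
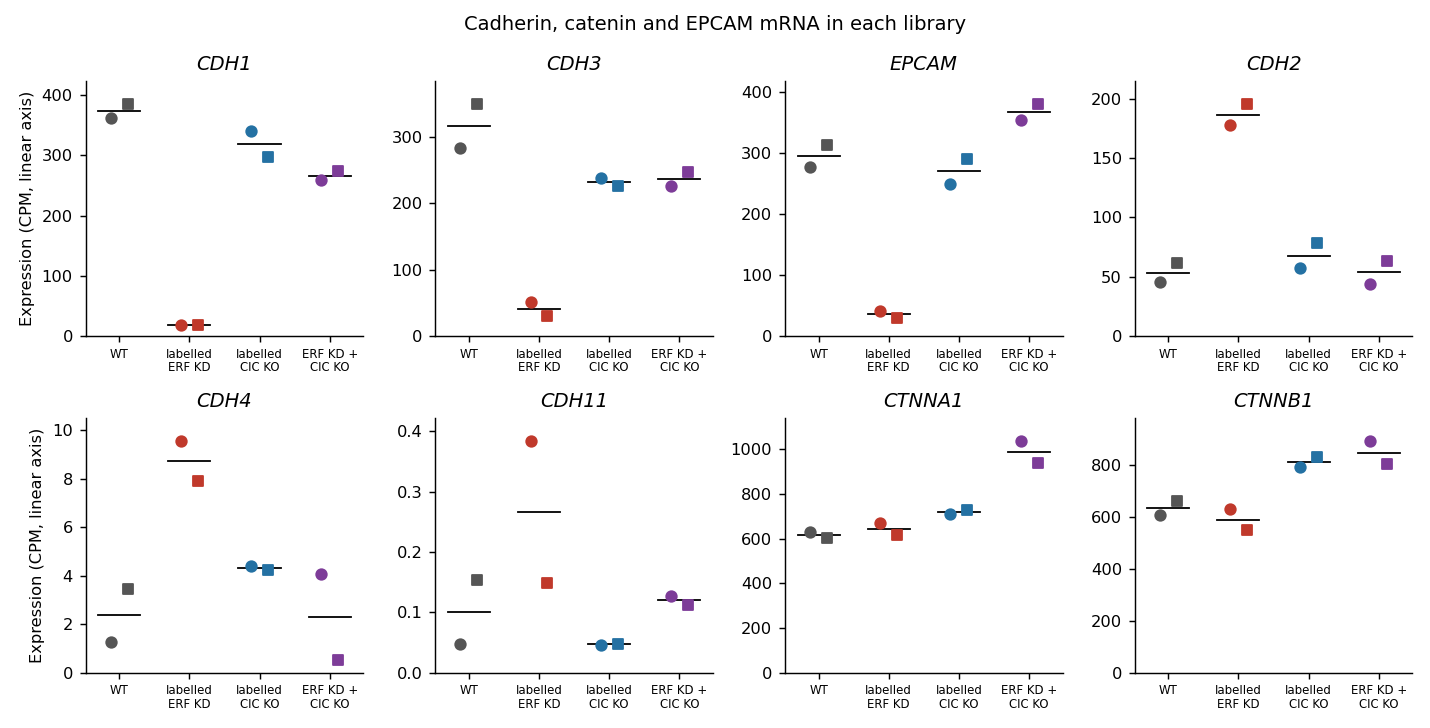
Expression of the 8 genes in CPM (linear axes that start at 0 and differ between panels) by group, with circles for library A, squares for library B and a line at the mean of 2 libraries. *CDH1*, *CDH3* and *EPCAM* are lowest and *CDH2* and *CDH4* highest in the *ERF* KD-labelled libraries, while *CTNNA1* is highest in *ERF* KD + *CIC* KO, at 1038 and 939 CPM.

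The *ERF* KD-labelled libraries were first compared with WT, and the differences are those of the libraries so labelled. E-cadherin, P-cadherin and EPCAM mRNA were lower, N-cadherin mRNA was higher, and the catenins showed no detected change. With the quasi-likelihood test of edgeR and Benjamini-Hochberg adjustment over all genes, 4 of the 7 tested members passed an adjusted p of 0.05, against 10.1% of all tested genes. The median log2 fold change of the 7 was -0.11, and that of all tested genes was 0.0058. In bulk RNA, fewer cells that carry a transcript and less of it per cell cannot be told apart.

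*CDH1* showed the largest change of the members. Its level was 362 and 385 CPM in WT and 17.6 CPM in each *ERF* KD-labelled library, which corresponds to 7618 and 7552 estimated counts against 367 and 354. Every *ERF* KD-labelled library was far below every WT library. *CDH1* fell by 4.41 on the log2 scale (SE 0.148, 21.2-fold lower, edgeR adjusted p = 1.27e-05). *CDH3* went from 283 and 349 CPM to 51.7 and 30.0, with no overlap and with library B of the *ERF* KD-labelled group below library A. It fell by 2.95 (SE 0.253, 7.74-fold lower, edgeR adjusted p = 0.000315). The fitted fall of *CDH3* was smaller than that of *CDH1*, and the ratio of *CDH3* to *CDH1* mRNA in TPM went from 1.11 and 1.22 in WT to 4.88 and 2.86. *EPCAM* went from 278 and 314 CPM to 41.1 and 29.4, again with separate groups. Its fall was 3.07 (SE 0.194, 8.40-fold lower, edgeR adjusted p = 9.31e-05).

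*CDH2* moved the other way. It was at 45.4 and 61.3 CPM in WT and at 178 and 195 CPM in the *ERF* KD-labelled libraries, and the groups did not overlap. *CDH2* rose by 1.81 on the log2 scale (SE 0.237, 3.50-fold, edgeR adjusted p = 0.00258). *CDH4*, its nearest relative here, was at 1.28 and 3.47 CPM in WT and at 9.56 and 7.90 CPM, or 27 and 68 counts against 199 and 159. These groups did not overlap either, but the difference of 1.88 (SE 0.764) did not pass the threshold (edgeR adjusted p = 0.171). Without the filter on low counts it did (edgeR adjusted p = 5.86e-05), a fit in which 22195 genes were tested, whereas it missed the threshold in the other 14 alternatives. *CDH11* had 1 and 3 counts in WT, 8 and 3 in the *ERF* KD-labelled libraries, 1 and 1 in the *CIC* KO-labelled ones and 3 and 2 in *ERF* KD + *CIC* KO. It lies at the floor of 3 counts, was not tested, and no difference was detectable at this depth.

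The catenins were abundant in all libraries. *CTNNA1* was at 629 and 604 CPM in WT and at 671 and 616 CPM in the *ERF* KD-labelled libraries, with overlapping values and a log2 difference of 0.06 (SE 0.130, edgeR adjusted p = 0.817). *CTNNB1* was at 608 and 663 CPM and at 631 and 549 CPM, also overlapping, with a difference of -0.11 (SE 0.140, edgeR adjusted p = 0.690).

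**Figure D2:**
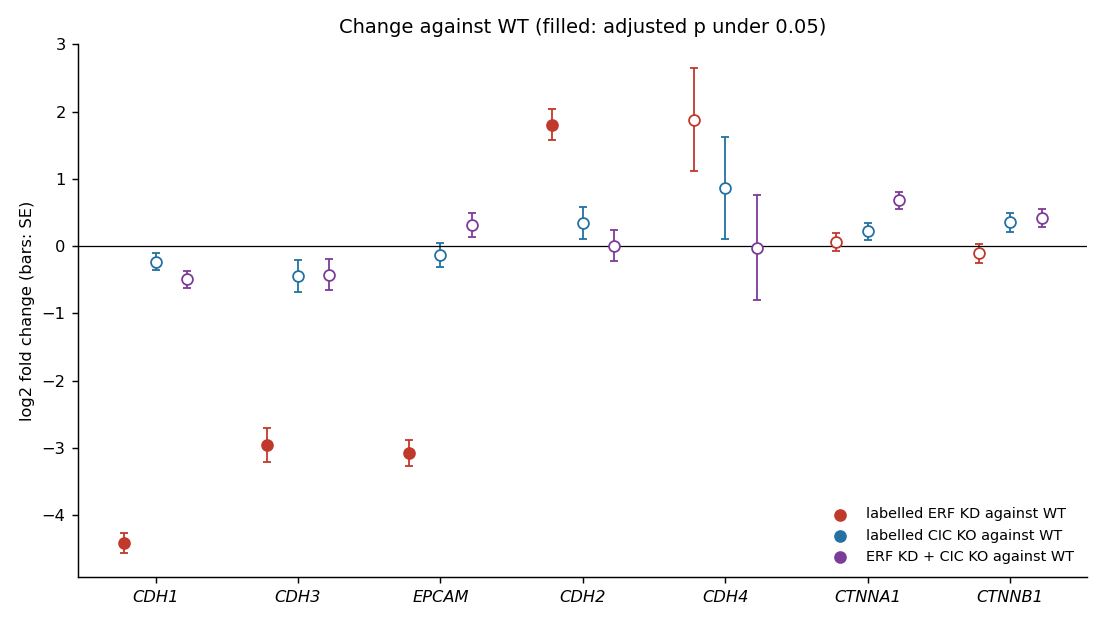
Fitted log2 fold change of each tested member against WT for the *ERF* KD-labelled libraries, the *CIC* KO-labelled ones and *ERF* KD + *CIC* KO, with SE bars and filled points where the adjusted p was under 0.05. All filled points belong to the *ERF* KD-labelled libraries and run from -4.41 for *CDH1* to 1.81 for *CDH2*, and the 3 comparisons share the WT libraries.

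Summed over the 5 cadherins, the mRNA pool was smaller in the *ERF* KD-labelled libraries. The sum was 288 and 303 TPM in WT, 106 and 94.8 in the *ERF* KD-labelled libraries, 269 and 214 in the *CIC* KO-labelled ones, and 212 and 224 in *ERF* KD + *CIC* KO. *CDH2* made up 6.11% and 7.16% of this sum in WT and 63.8% and 75.3% in the *ERF* KD-labelled libraries. In the *CIC* KO-labelled ones its share was 8.12% and 12.8%, and in *ERF* KD + *CIC* KO it was 7.91% and 10.8%. The ratio of *CDH2* to *CDH1* in TPM was 0.138 and 0.172 in WT, 12.02 and 13.9 in the *ERF* KD-labelled libraries, 0.177 and 0.321 in the *CIC* KO-labelled ones, and 0.199 and 0.258 in *ERF* KD + *CIC* KO. The predominant cadherin mRNA was therefore E- and P-cadherin in 3 groups and N-cadherin in the other. Set against the cadherin sum, *CTNNB1* stood at 1.08 and 1.01 in WT, 2.87 and 2.63 in the *ERF* KD-labelled libraries, 1.44 and 1.71 in the *CIC* KO-labelled ones, and 2.06 and 1.61 in *ERF* KD + *CIC* KO. β-catenin mRNA per cadherin mRNA was above WT in each of the other groups, and no test was run on these ratios.

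**Figure D3:**
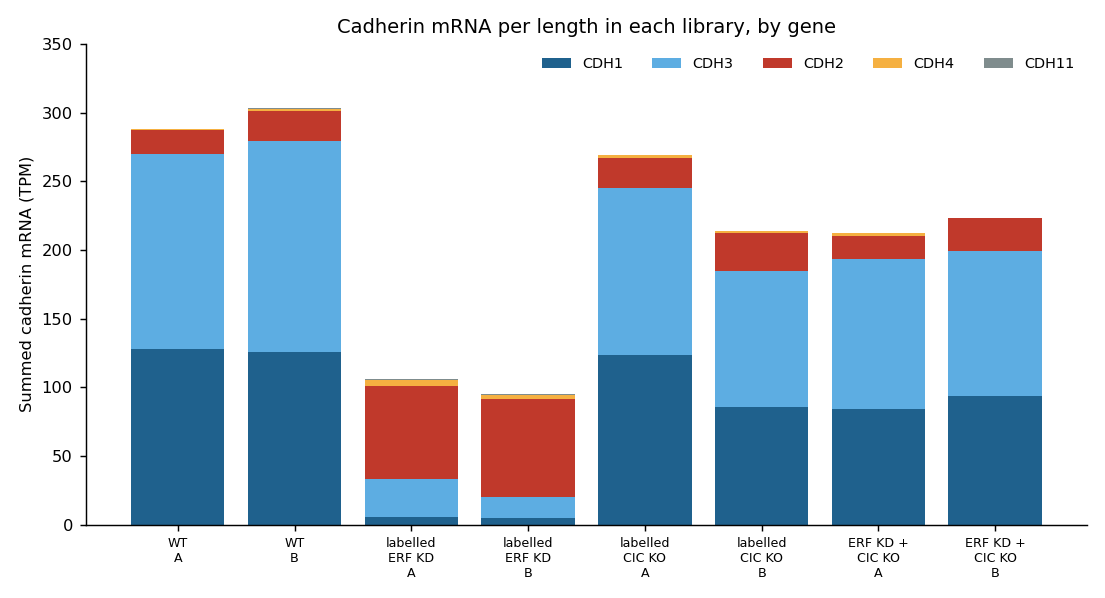
Cadherin mRNA in TPM for each library, stacked by gene, on an axis that starts at 0. The bars of the *ERF* KD-labelled libraries, at 106 and 94.8 TPM, are the shortest and are mostly *CDH2*, whereas the other bars are mostly *CDH1* and *CDH3*.

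The *CDH2* counts came almost wholly from a pair of annotated transcripts with different first exons. CDH2-201 starts at base 28177446 of chromosome 18 (GRCh38, minus strand) and held 73.5% of the counts over all libraries, and CDH2-202 starts at base 28036585 within the gene and held nearly all the rest. CDH2-201 was at 14.3 and 17.9 TPM in WT, 50.2 and 46.9 in the *ERF* KD-labelled libraries, 16.0 and 17.4 in the *CIC* KO-labelled ones, and 12.5 and 11.5 in *ERF* KD + *CIC* KO. CDH2-202 was at 3.27 and 3.85 TPM in WT, 17.5 and 24.4 in the *ERF* KD-labelled libraries, 5.89 and 10.1 in the *CIC* KO-labelled ones, and 4.25 and 11.6 in *ERF* KD + *CIC* KO. Both transcripts were highest in the *ERF* KD-labelled libraries, where the ratio of means to WT was 3.02 for CDH2-201 and 5.89 for CDH2-202. The share of the inner-start transcript in the gene's counts was 16.0% and 15.3% in WT, and between 22.04% and 45.4% in the 6 other libraries. Transcript values divide shared reads by estimation, were not tested, and have no error beyond the spread of the pair.

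The stretch before the inner start is shown, although the difference in the share of its transcript was not tested and varied between libraries. RefSeq (GRCh38.p14) places this start at base 28036641, and the 150 bases upstream on the minus strand (chr18:28036642-28036791) hold no exon of GENCODE 29. Capitals mark the 2 matches to the ETS core GGAA, both on the opposite strand.
CDH2 inner start: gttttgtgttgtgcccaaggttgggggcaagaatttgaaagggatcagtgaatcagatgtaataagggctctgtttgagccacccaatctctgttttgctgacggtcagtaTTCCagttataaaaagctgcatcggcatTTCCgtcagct
The RefSeq table held 9 windows, from 250 bases before to 50 after a start, for 4 members (*CDH2*, *CDH4*, *CTNNA1* and *CTNNB1*). GGAA on either strand was in all 9, and in 95.45% of 35116 windows of all genes. CACCTG, the E-box bound by ZEB and SNAIL repressors, was in 1 of them, a *CDH4* window, and in 20.59% of all windows. TNAATNAA, written with N where the CIC motif allows a choice, was in 2 *CTNNA1* windows that overlap each other and in 13.18% of all windows, and neither *CDH2* window held it or the E-box. These are matches of letters and not measured binding, and TNAATNAA is wider than the CIC motif.

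**Figure D4:**
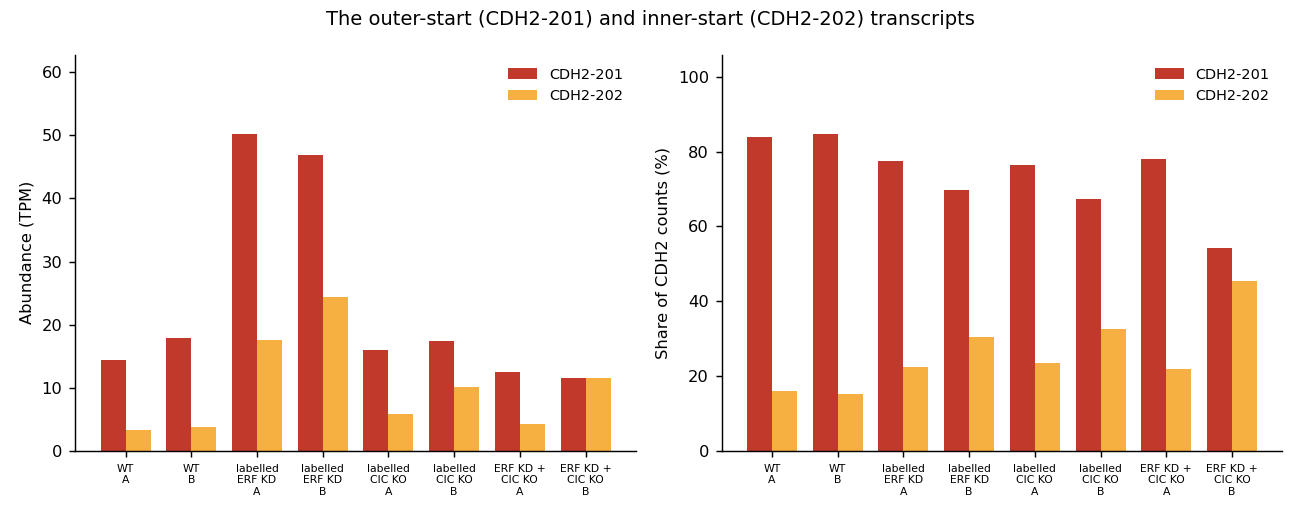
The *CDH2* transcripts in each library, as TPM on the left and as a percentage of the gene's estimated counts on the right, with bars from 0. In TPM the bars for both transcripts are tallest in the *ERF* KD-labelled libraries, whereas in percent CDH2-202 takes its largest share, 45.4%, in library B of *ERF* KD + *CIC* KO.

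The *CIC* KO-labelled libraries were close to WT in these genes. *CDH1* was at 341 and 297 CPM, *CDH3* at 239 and 226, *EPCAM* at 250 and 291 and *CDH2* at 57.1 and 78.3 CPM. *CDH1* and *CDH3* lay below both WT libraries, and *EPCAM* and *CDH2* overlapped with WT. *CTNNA1* was at 710 and 727 CPM and *CTNNB1* at 792 and 832 CPM, both above the WT range, and *CDH4* was at 4.42 and 4.23 CPM. None of the 7 members was called by edgeR (0% of all tested genes were), and 1 had an unadjusted p under 0.05, *CTNNB1* with a log2 difference of 0.35 (SE 0.140, edgeR adjusted p = 0.9997). DESeq2 called none of the members and 26 genes in all. For *CDH1* the log2 difference of -0.23 had an SE of 0.128, a fraction of the change seen in the *ERF* KD-labelled libraries.

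In cells with *ERF* KD + *CIC* KO, *CTNNA1* and *EPCAM* lay above all other libraries, and no member passed the threshold against WT. *CDH1* was at 258 and 273 CPM, below both WT libraries, with a log2 difference of -0.49 (SE 0.128, edgeR adjusted p = 0.178). *CDH3* at 225 and 247 CPM was likewise below WT (-0.42, SE 0.234, edgeR adjusted p = 0.473). *CDH2* at 44.1 and 63.3 CPM overlapped with WT. *EPCAM* at 354 and 381 CPM was above both WT libraries, with a difference of 0.31 (SE 0.178, edgeR adjusted p = 0.485). *CTNNA1* at 1038 and 939 CPM was above every other library of the series (0.68 against WT, SE 0.130, 1.60-fold). This value missed the threshold in the main fit (edgeR adjusted p = 0.0962) and passed it with the replicate letter as a block (edgeR adjusted p = 0.0220). *CTNNB1* at 895 and 804 CPM was above both WT libraries (0.42, SE 0.140, edgeR adjusted p = 0.269). *CDH4* differed between the libraries of this group, at 4.06 and 0.508 CPM.

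Of the 7 members none was called against WT in this group, beside 0.0682% of all tested genes, and 3 had an unadjusted p under 0.05 (*CDH1*, *CTNNA1* and *CTNNB1*). DESeq2 called *CDH1* (adjusted p = 0.0220) and *CTNNA1* (adjusted p = 6.01e-05), in a fit that called 439 genes in place of 10. The block likewise raised that number to 365.

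Against the *ERF* KD-labelled libraries, cells with *ERF* KD + *CIC* KO differed in 6 of the 7 tested members, beside 11.7% of all tested genes. *CDH1* was 15.1-fold higher (log2 3.92, SE 0.145, edgeR adjusted p = 1.78e-05), *EPCAM* 10.4-fold higher (3.38, SE 0.197) and *CDH3* 5.78-fold higher (2.53, SE 0.249). *CDH2* was 3.48-fold lower (-1.80, SE 0.237, edgeR adjusted p = 0.00247). These members differed in the opposite direction to the comparison of the *ERF* KD-labelled libraries with WT, with which it shares the *ERF* KD-labelled libraries. The catenins were higher by less, *CTNNA1* by 0.62 (SE 0.130, edgeR adjusted p = 0.0195) and *CTNNB1* by 0.53 (SE 0.140, edgeR adjusted p = 0.0465). Both catenin calls were lost in a fit of only these 2 groups (edgeR adjusted p = 0.0691 and 0.115). That of *CTNNB1* was also lost when any 1 library was left out (adjusted p from 0.0594 to 0.203) and by limma on both TPM scales (adjusted p = 0.0641 and 0.0628). That of *CTNNA1* was lost without *ERF* KD-labelled library A (adjusted p = 0.0570), *ERF* KD-labelled library B (0.102) or *ERF* KD + *CIC* KO library A (0.108). *CDH4* differed by -1.90 (SE 0.762, edgeR adjusted p = 0.156), and by -4.08 without *ERF* KD + *CIC* KO library A (edgeR adjusted p = 0.0271).

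Against the *CIC* KO-labelled libraries, cells with *ERF* KD + *CIC* KO had 0 of 7 members called, beside 0% of all tested genes, with 2 members at an unadjusted p under 0.05. These were *CTNNA1* (0.46, SE 0.130) and *EPCAM* (0.44, SE 0.178), both higher with no overlap. *CDH1* and *CDH4*, which were lower, did not overlap either. DESeq2 called *CTNNA1* (adjusted p = 0.0441), with 141 genes called in all. Between these groups, which shared a low *ERF* mRNA, the log2 differences of *CDH1*, *CDH2* and *CDH3* were -0.26 (SE 0.128), -0.34 (SE 0.231) and 0.02 (SE 0.234).

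Between the single-loss groups, 4 of 7 members differed, beside 9.40% of all tested genes. In the *ERF* KD-labelled libraries, *CDH1* was 18.1-fold lower than in the *CIC* KO-labelled ones, *EPCAM* 7.67-fold lower, *CDH3* 5.69-fold lower and *CDH2* 2.76-fold higher. The log2 differences were -4.18 (SE 0.147), -2.94 (SE 0.193), -2.51 (SE 0.249) and 1.46 (SE 0.234), with edgeR adjusted p of 1.39e-05, 0.000106, 0.000604 and 0.00649. *CTNNB1* was lower in the *ERF* KD-labelled libraries by -0.46 on this scale (SE 0.140, edgeR adjusted p = 0.0834), and passed the threshold with the replicate block (edgeR adjusted p = 0.0311) and in DESeq2 (adjusted p = 0.0144).

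The interaction term measures how far the group with both losses departs from the sum of the single-loss changes. It passed for 4 of 7 members, beside 4.15% of all tested genes. The term was 4.14 for *CDH1* (SE 0.190, edgeR adjusted p = 9.79e-05), 3.51 for *EPCAM* (SE 0.261), 2.98 for *CDH3* (SE 0.339) and -2.14 for *CDH2* (SE 0.330, edgeR adjusted p = 0.0108). For *CTNNA1* it was 0.40 (SE 0.184, edgeR adjusted p = 0.316), for *CTNNB1* 0.17 (SE 0.197, edgeR adjusted p = 0.741), and for *CDH4* -2.77 (SE 1.07, edgeR adjusted p = 0.228). The *CDH4* term became -4.95 without *ERF* KD + *CIC* KO library A (edgeR adjusted p = 0.0418).

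Other genes of the junction were read from lists fixed by name. Of 21 partners of the adherens junction, 20 were tested, and in the *ERF* KD-labelled libraries 6 were lower than WT, 0 higher and 14 not called, where 10.1% of all tested genes were called (median log2 difference -0.02, beside 0.0058 over all genes). *JUP*, which encodes plakoglobin, the relative of β-catenin at junctions and desmosomes, went from 160 and 202 CPM in WT to 53.2 and 33.5 (-2.06, SE 0.239, edgeR adjusted p = 0.00140). *AFDN*, which encodes afadin, the link of nectins to actin, went from 256 and 224 CPM to 90.8 and 84.4 (-1.45, SE 0.180). *PTPRF*, a receptor phosphatase found at junctions, went from 507 and 559 CPM to 269 and 321 (-0.86, SE 0.139). *NECTIN4*, a nectin of epithelia, went from 7.46 and 15.2 CPM to 0.672 and 1.49 (-3.38, SE 0.604). These 4 were named for the list's smallest adjusted p in this comparison, so their lack of overlap with WT adds no support. The other 2 that fell were *NECTIN1* and *PLEKHA7*. The p120-catenin gene *CTNND1* was at 433 and 378 CPM against 297 and 207 CPM (-0.69, edgeR adjusted p = 0.0770), and the actin-binding *VCL*, *ACTN1* and *ACTN4* were not called.

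In *ERF* KD + *CIC* KO against the *ERF* KD-labelled libraries, 5 of the 20 partners were higher and 1 lower, where 11.7% of all tested genes were called. *JUP* was higher by 2.04 (SE 0.239), *AFDN* by 1.47 (SE 0.180), *NECTIN4* by 3.19 (SE 0.602), and *PLEKHA7* and *PTPRF* were also higher. The one lower was *VCL*, which encodes vinculin (-0.53, SE 0.126). Against WT, neither the *CIC* KO-labelled libraries nor *ERF* KD + *CIC* KO had a partner called by edgeR or DESeq2, and 3 partners in each had an unadjusted p under 0.05. Of all tested genes, edgeR called 0% and 0.0682% in these comparisons.

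Several genes from a list of EPCAM-associated proteins and proteases were lower as well. Of 15 genes for EPCAM-associated membrane proteins and proteases, 14 were tested, and 6 were lower in the *ERF* KD-labelled libraries, 0 higher and 8 not called, beside the same 10.1% of all tested genes (median -0.46). *CLDN7*, which encodes claudin-7, a tight junction protein that binds EPCAM, went from 123 and 165 CPM to 7.21 and 8.54 (-4.19, SE 0.202, edgeR adjusted p = 3.465e-05). *ST14*, which encodes the membrane protease matriptase, went from 100.2 and 131 CPM to 7.16 and 8.64 (-3.87, SE 0.195). *SPINT1*, an inhibitor of matriptase, went from 109 and 158 CPM to 26.8 and 14.8 (-2.68, SE 0.284). These 3 were named for a small adjusted p in this comparison, so their separation from WT adds no support. *PRSS8* and *SPINT2* also fell. The sheddase genes *ADAM17* (0.14) and *ADAM10* (-0.37) were not called. In *ERF* KD + *CIC* KO against the *ERF* KD-labelled libraries, 7 of the 14 were higher and 0 lower, beside 11.7% of all tested genes called. *CLDN7* was higher by 4.53 (SE 0.204) and *ST14* by 4.15 (SE 0.197).

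All 8 genes for known repressors of cadherin genes were tested, and 3 were higher in the *ERF* KD-labelled libraries, 0 lower and 5 not called, beside 10.1% of all tested genes (median 0.89). *ZEB1*, a zinc-finger repressor of *CDH1*, was at 6.08 and 7.04 CPM in WT and at 41.1 and 49.0 CPM (2.78, SE 0.195, edgeR adjusted p = 0.000131). *ZEB2*, its close relative, was at 3.47 and 4.79 CPM and at 40.1 and 38.2 CPM (3.25, SE 0.232, edgeR adjusted p = 0.000138). *TWIST1*, a helix-loop-helix factor, was at 7.93 and 7.95 CPM and at 20.2 and 17.1 CPM (1.23, SE 0.285, edgeR adjusted p = 0.0308), and *TWIST2* differed by 0.98 (SE 0.304, edgeR adjusted p = 0.0842). Neither Snail gene was called: *SNAI1* was at 0.712 and 1.02 CPM against 0.528 and 0.695, and *SNAI2* at 74.3 and 77.0 CPM against 16.7 and 52.2 (-1.14, SE 0.452, edgeR adjusted p = 0.163). In *ERF* KD + *CIC* KO, *ZEB1* was at 2.50 and 2.93 CPM and *ZEB2* at 3.09 and 2.48 CPM, lower than in the *ERF* KD-labelled libraries by -4.05 (SE 0.211) and -3.80 (SE 0.240) on the log2 scale, and *TCF4* was lower too (-1.11, SE 0.266). Against WT, *ZEB1* in this group was lower by a log2 difference of -1.275 (SE 0.204) and was not called (edgeR adjusted p = 0.0741). DESeq2 called 1 of the 8 repressors there.

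**Figure D5:**
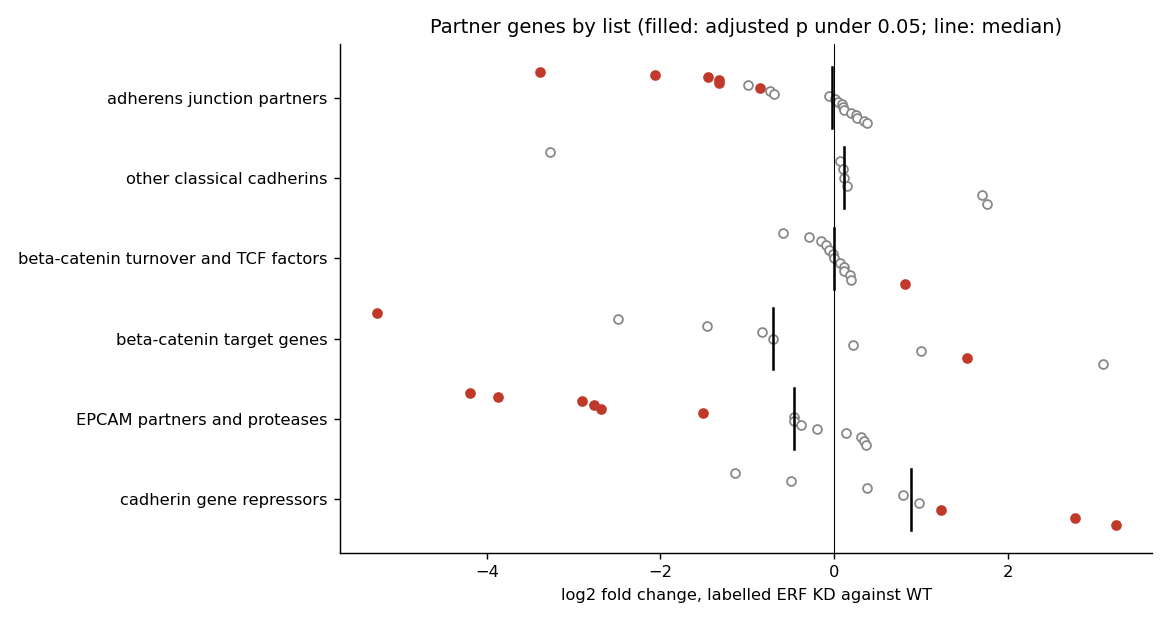
Fitted log2 fold change of every tested gene of 6 lists in the *ERF* KD-labelled libraries against WT, 1 point per gene, filled where the adjusted p was under 0.05, with a line at the list's median. Called genes of the junction list and the EPCAM list lie left of 0, called repressors right of 0, and the medians run from -0.70 for β-catenin targets to 0.89 for repressors.

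β-catenin also acts in the nucleus with TCF factors. Of 14 genes for its turnover and its nuclear partners, 13 were tested and 1 was called in the *ERF* KD-labelled libraries. With so few genes, 1 of 13 cannot be told from the 10.1% of all tested genes. The called gene was *APC*, a scaffold of the complex that marks β-catenin for degradation. *APC* was at 44.6 and 53.5 CPM in WT and at 74.3 and 99.2 CPM (0.82, SE 0.177, edgeR adjusted p = 0.0232), and this call was lost in 6 of 15 alternatives. *FBXW11* (0.20), *GSK3B* (0.19) and *TCF7* (-0.29) were not called. Of 12 genes widely described as β-catenin targets, 9 were tested, with *DKK1* higher and *LGR5* lower. *DKK1*, a secreted inhibitor of Wnt signals, went from 35.8 and 47.5 CPM to 99.9 and 142 (1.54, SE 0.333, edgeR adjusted p = 0.0237). *LGR5*, a receptor for R-spondins, had 35 and 13 counts in WT and 0 and 1 in the *ERF* KD-labelled libraries, which are under the floor of 3 counts. *AXIN2*, the common readout of the pathway, had 0 and 3 counts against 15 and 13 and was not called (edgeR adjusted p = 0.158), and *NOTUM* was at 1.33 and 1.12 CPM against 0.384 and 0.497. The number of targets called ranged from 0 to 5 over the alternatives. In the *CIC* KO-labelled libraries and *ERF* KD + *CIC* KO, edgeR and DESeq2 called 0 targets against WT. In each group 2 targets had an unadjusted p under 0.05. Of all 14653 tested genes, edgeR called 0 and 10 in these groups, and DESeq2 called 26 and 439. An unadjusted p under 0.05 in edgeR was found for 587 and 1950 genes. A count of 0 among 9 targets cannot be told from these shares.

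Of 17 other cadherins, 7 were tested, and none was called in the *ERF* KD-labelled libraries by edgeR or DESeq2 (2 at an unadjusted p under 0.05, and 1 called without the filter on low counts). Of all tested genes, edgeR called 10.1% there. *CDH24* was at 24.4 and 20.9 CPM in WT and at 24.8 and 25.4 CPM. *CDH5*, which encodes VE-cadherin, was at 10.3 and 5.15 CPM in WT, 34.4 and 7.75 in the *CIC* KO-labelled libraries, and 65.3 and 15.0 in *ERF* KD + *CIC* KO, with library A above library B in each, and its log2 difference between the last group and WT was 2.38 (SE 0.976, edgeR adjusted p = 0.351). *CDH18* was at 0.427 and 0.561 CPM in WT, 1.06 and 2.34 in the *ERF* KD-labelled libraries, and 0.212 and 0.113 in *ERF* KD + *CIC* KO, where it was lower than in the *ERF* KD-labelled libraries (-3.30, SE 0.749, edgeR adjusted p = 0.0260). *CDH16* and *CDH17* differed from WT by -3.27 (SE 1.28) and 1.70 (SE 0.777) and were not called.

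Markers of other cells were read beside these results. The keratin genes *KRT8*, *KRT18* and *KRT19* made up most of the summed level of 6 epithelial markers, which was 3154 and 3935 CPM in WT, 1587 and 2060 in the *ERF* KD-labelled libraries, 3459 and 4622 in the *CIC* KO-labelled ones, and 3320 and 4382 in *ERF* KD + *CIC* KO. The basal marker *TP63* was at or under the floor in WT. Of the 5 epithelial markers tested, 4 were lower in the *ERF* KD-labelled libraries (*KRT5*, *KRT14*, *KRT18* and *KRT19*), where 10.1% of all tested genes were called. The 8 fibroblast markers summed to 49.4 and 31.4 CPM in WT and to 115 and 42.5 in the *ERF* KD-labelled libraries, with 1 of 5 tested called (*COL3A1*, at 9.89 and 1.79 CPM against 0.427 and 0.561). *LUM* was at 0 in every library. The 5 endothelial markers summed to 4.94 and 6.63 CPM in WT and 3.51 and 3.28 in the *ERF* KD-labelled libraries, with 0 of 5 called by edgeR or DESeq2 (1 at an unadjusted p under 0.05), and of 4 leukocyte markers 2 were tested and *CSF1R* was lower. With so few markers, 1 of 5 or 0 of 5 called cannot be told from the 10.1% of all tested genes. The part of the marker genes in the *CDH2* and *CDH1* values was not tested.

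*CDH3* and *CDH1* lie side by side on chromosome 16, with 14.6 kb between the end of *CDH3* and the start of *CDH1* (GRCh38, GENCODE 29). *CDH3* spans chr16:68636189-68722616 and *CDH1* chr16:68737225-68835548, both on the plus strand. Of 13 other tested protein-coding genes that start within 500 kb of the *CDH1* start, 2 were lower in the *ERF* KD-labelled libraries, 0 higher and 11 not called, with a median of 0.02. Of all tested genes, 10.1% were called. The 2 were *CDH3* and *ESRP2*, a splicing factor of epithelia at -2.47 (SE 0.185). *ZFP90* and *TANGO6*, the nearest on either side apart from *CDH3*, were at 0.01 (SE 0.216) and 0.47 (SE 0.191). *HAS3* differed by 2.20 (SE 0.672) and was not called (edgeR adjusted p = 0.0799). Most genes in this window were not called, which also holds for all tested genes, so the count does not set the region apart.

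Genes with the pattern nearest to *CDH1* over the 8 libraries were, by root mean square difference of centred log2 values, *OVOL2* (0.198), *IL36RN* (0.218), *VGLL1* (0.222), *ESRP1* (0.240) and *PROM2* (0.244). *OVOL2*, a zinc-finger factor of epithelia, was at 15.1 CPM in WT and 0.783 in the *ERF* KD-labelled libraries on average, and *ESRP1*, a splicing factor of epithelia, at 207 and 12.4 CPM. For *CDH2* the nearest were *IKBIP* (0.169), *GPR176* (0.174), *COL8A1* (0.178), *TMEM255B* (0.186) and *FGF1* (0.199). *COL8A1*, a collagen gene, was at 10.2 CPM in WT and 36.6 CPM in the *ERF* KD-labelled libraries. For *EPCAM* they were *DENND1C* (0.199), *CSF1R* (0.204), *LSR* (0.215), *FAM83B* (0.218) and *AP1M2* (0.223). *LSR*, a protein of tricellular junctions, was at 135 and 14.5 CPM, and *AP1M2*, which sorts proteins to the basolateral membrane of epithelia, at 94.8 and 9.99 CPM. The *ERF* KD-labelled libraries stand apart from the other 6, so that any gene with a like difference there takes a small distance.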

How the data were processed

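The authors deposited, for each library, TPM and unnormalized estimated counts for every transcript, in the columns that kallisto writes. Per the labels the build was hg19, and the kallisto version, annotation and strandedness are not given in the sources used here. The study's methods describe quantification with RSEM, which is not the program whose columns these are. Of 180253 listed transcripts, 153245 (85.0%) were found by identifier in GENCODE release 29, and gene counts are rounded sums of their estimated counts over 33791 genes. The other transcripts held the rest of each library's counts (93.2% to 93.3% were on genes) and were left out of library sizes and tests. For some leading transcripts the length in the files differs from that in GENCODE 29 (for CDH3-201, 3702 against 4929 bases), so TPM rests on other models than the sequences shown.

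Counts were tested with edgeR 4.0.16 (TMM, filterByExpr, glmQLFit and glmQLFTest in R 4.3.3) in a single fit of 4 groups, and a gene is called where its p, adjusted over 14653 genes by Benjamini-Hochberg, is under 0.05. The SE is the absolute log2 fold change divided by the square root of F. CPM uses TMM library sizes. The test was checked on counts simulated from the means and spread of these data, drawn separately for each library. Such a check leaves out the correlation between libraries of the same letter that is given below. Sequences were aligned with Biopython 1.88. Replicates differed by more than sampling noise (a chi-square of 20.8 to 41.6 per degree of freedom). Log2 differences between A and B correlated across genes in all pairs of groups (0.136 to 0.335), and libraries with the same letter were therefore taken as pairs in an alternative fit with the letter as a block, although no label gives the meaning of a letter. The main fit has no block. With the block, the biological coefficient of variation was 0.142 in place of 0.197. With 2 libraries a group, the smallest 2-sided p of an exact permutation test is 0.333, and no such test was run.

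The members, lists and tests were chosen with earlier results of these data known. Named were all members, *ERF* and *CIC*, the 4 genes with the smallest adjusted p of each list in the *ERF* KD-labelled comparison, the 5 nearest patterns of *CDH1*, *CDH2* and *EPCAM*, and genes near *CDH1*. Further called list genes, markers, *CDH5*, *CTNND1*, the actin-binding partners, the sheddases and the Snail genes were named after their values were seen. Some genes of the EPCAM list are not reported here by name. Alternatives were DESeq2 1.42.0, library totals without TMM, no filter, the replicate block, limma 3.58.1 on log2(TPM + 1) and log2(TPM + 0.1), only the groups compared, and each library left out in turn. RefSeq windows matched 4 of 8 members, and no window of *CDH1*, *CDH3*, *CDH11* or *EPCAM* was used.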

Additional observations from a re-analysis of the deposited data

Results flagged for a closer look

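The difference of *ERF* KD + *CIC* KO from WT departed from the sum of the single-loss differences for 4 members, by the interaction term of the edgeR fit. The term was 4.14 for *CDH1*, 2.98 for *CDH3*, 3.51 for *EPCAM* and -2.14 for *CDH2*, on the log2 scale. *CDH1* was at 17.6 CPM in each *ERF* KD-labelled library and at 258 and 273 CPM in *ERF* KD + *CIC* KO, against 362 and 385 CPM in WT. The 4 terms passed the threshold in all 14 alternatives run for the interaction, with an adjusted p of at most 0.0446 (*CDH2*). The term does not depend on which single-loss group is which. Why cells labelled with both losses lack the pattern of the *ERF* KD-labelled ones was not tested, and the labels do not say how many separately made lines a group holds.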

How the results depend on the processing

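Of 728 member values over the alternatives, 690 kept their direction and their side of the threshold, 15 lost a call, 12 gained one and 11 changed sign. The calls of *CDH1*, *CDH2*, *CDH3* and *EPCAM* held in every alternative of the 4 comparisons in which they were made. All 4 comparisons contain the same 2 *ERF* KD-labelled libraries, so they are not separate support. The number of members called in *ERF* KD + *CIC* KO against WT went from 0 to 2 with DESeq2, 1 without the filter and 1 with the replicate block, and that against the *CIC* KO-labelled libraries from 0 to 1 with DESeq2. Leaving out a library gave 4 to 5 members against the *ERF* KD-labelled libraries (6 in the full fit) and a fit of only those groups gave 4, while no filter gave 7, and the call of *CTNNB1* there needs all 8 libraries. The block changed no other member call than those of *CTNNA1* and *CTNNB1* given above. Sign changes were all in small uncalled values: *CDH2* in *ERF* KD + *CIC* KO against WT (0.0087, but -0.049 without TMM and -0.27 to 0.25 with a library left out), *CDH4* there (-0.021, but -2.21 to 0.86 with a library left out), *CDH3* against the *CIC* KO-labelled libraries (0.023, but -0.022 without TMM, -0.033 and -0.033 on the TPM scales, and -0.042 to 0.088 with a library left out), and *CTNNB1* there (0.065, but -0.012 to 0.14 with a library left out). Over all genes, calls in the *ERF* KD-labelled comparison ranged from 620 to 2671 (1477 in the full fit), and those of *ERF* KD + *CIC* KO against WT were 439 with DESeq2, 365 with the block and 768 without the filter (10 in the full fit). The cause of these changes was not tested. The *CDH2* to *CDH1* ratio in the *ERF* KD-labelled libraries averaged 12.9 in TPM and 10.6 in CPM. At 2 libraries per group, differences of the size seen in the catenins are near the limit of the test, and *CDH11* is below it.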
